A study of Rattus norvegicus with 4 samples.

Results

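The glutathione, thioredoxin and Nrf2 genes were followed in NR8383 cells, an established line of alveolar macrophages obtained by washing the lung of a normal rat. The genes were chosen by name: every rat RefSeq symbol that begins with Gpx, Prdx, Gsta, Gstm, Gstp, Gstt, Gsto, Gstk, Mgst, Txn or Glrx, and the 16 genes Nfe2l2, Keap1, Bach1, Mafg, Mafk, Nqo1, Srxn1, Gclc, Gclm, Gss, Gsr, Cat, Sod2, Sod3, Osgin1 and Sqstm1. Of 133 such symbols, 75 had a named probe on the array, out of 16575 named genes in all, and these 75 genes were measured by 94 probes in 205 spots. The other 58 symbols, 45 of them annotated as pseudogenes, had no named probe; Glrx2, Gstt3, Txndc16 and Txnl4a were among them.

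The series holds 1 group of 4 samples, the water control (H2O) of 4 h that also carries the tag ALI, an abbreviation the labels leave unexplained. Per the labels, the line had been passaged 20 times and cells had stood in 25 cm2 flasks for 48 h, and the design text describes the 4 samples as biological replicates. NR8383 is a single established line, so the replicates share 1 genetic source. Each replicate was hybridised to 1 one-colour Agilent array, and no second condition was analysed here.

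Glutathione is a small thiol that cells make from cysteine, glutamate and glycine, use to reduce peroxides and to tag reactive compounds, and regenerate with NADPH. Thioredoxin carries out the matching work on protein disulfides and hands electrons to the peroxiredoxins, which reduce hydrogen peroxide. Nrf2, the product of Nfe2l2, is the transcription factor that drives many of these genes; its partner Keap1 has it degraded in resting cells and lets it accumulate under oxidants and electrophiles. Alveolar macrophages meet inhaled oxidants and particles and produce reactive oxygen species of their own.

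The arrays were alike in quality. Each array had 49.2% to 50.3% of its gene spots well above background, no spot was saturated, and Pearson's r over 17324 detected probes was 0.990 to 0.994 between pairs of arrays, across probes that are not independent replicates. All 10 macrophage markers examined were detected, among them Cd68 and Spi1, and so were 3 of 5 alveolar macrophage markers (Pparg, Fabp4 and Siglec5; Marco and Car4 were not). None of 11 markers of other lung cells, such as Sftpc, Epcam and Col1a1, was flagged on any array. In bulk RNA, fewer cells that express a gene and less RNA per cell cannot be told apart. All 4 arrays lay on 1 slide, so their number limits the precision of every SD given here.

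Most of the defence genes gave a signal. The call of each gene follows the scanner software's flag for a spot well above background: a gene with a probe flagged on 4 of 4 arrays counted as detected, one with 1 to 3 such arrays as partly detected, and one with none as not detected. By this rule 50 of the 75 genes were detected (66.7%), against 51.0% of all named genes, 3 were partly detected (6.43% of all named genes were) and 22 were not detected (against 42.6%). The shares differed widely between roles. All 6 Nrf2 regulators, all 7 peroxiredoxin and sulfiredoxin genes, all 3 microsomal glutathione transferases and all 3 glutaredoxins were detected, as were 5 of 6 genes of the thioredoxin system and 8 of 10 thioredoxin-domain genes. Of the soluble glutathione transferases 9 of 23 were detected, and of the glutathione peroxidases 2 of 8. A gene with 1 named probe can be called not detected through that probe alone, and 60 of the 75 genes had 1 probe.

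**Figure D1:**
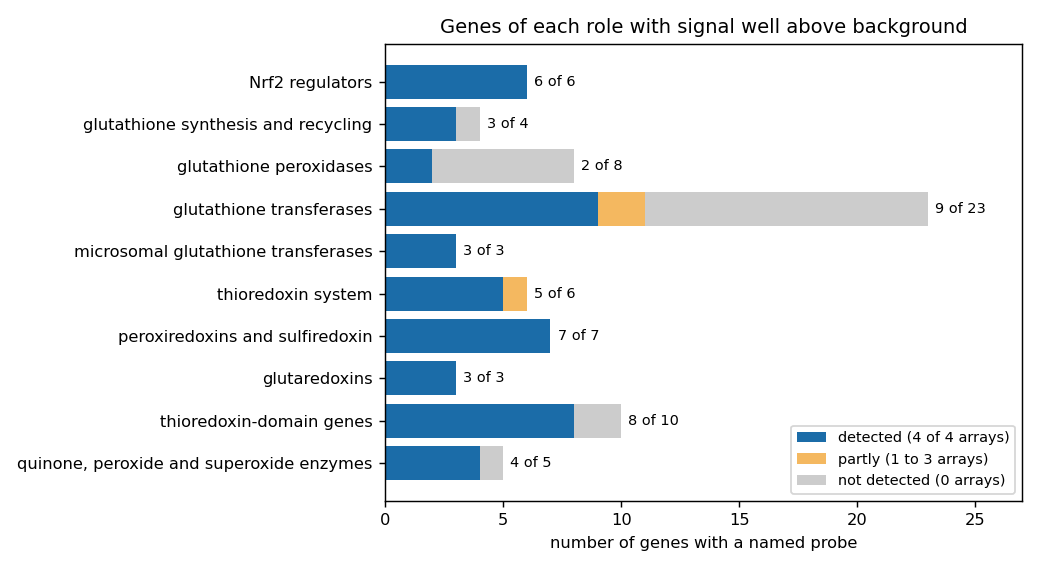
Number of genes with a named probe in each role (x axis) that were detected on 4 of 4 arrays, on 1 to 3 arrays or on none, with roles down the y axis. The bars for Nrf2 regulators, peroxiredoxins and sulfiredoxin, microsomal transferases and glutaredoxins are filled to the end, whereas 9 of 23 soluble glutathione transferases and 2 of 8 glutathione peroxidases were detected.

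Levels below are log2 processed signals from which the 75th percentile of the same array was subtracted, so that 0 is that percentile and 1 unit is 2-fold; they follow 1 probe across the replicates and do not rank genes, because probes differ in affinity. The spread of a gene is its SD over the 4 arrays. It was tested against the SD that limma fits for all genes of the same signal (an upper-tail F test on the variance, adjusted by Benjamini-Hochberg over 8452 tested genes), and a gene past an adjusted p of 0.05 is called hypervariable. Of the 50 detected defence genes 0 were hypervariable by limma, against 0.237% of all tested genes (20 genes). At an unadjusted p under 0.05 the count was 5 of 50 (10.0%), against 6.29% of all tested genes; these 5 were Txnrd1, Txndc15, Txndc5, Gsr and Gsta1. Under 16 alternatives in the processing or the variance model, limma also called 0 of the defence genes. As so few of all tested genes were called, a count of 0 among 50 genes says little about them. On simulated data the test missed nearly all genes with a moderately raised SD, so a gene that did not pass may still vary.

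The transcription factor itself and its inhibitor were both present on every array. Nfe2l2 stood at 2.32, 2.37, 2.34 and 2.18 on replicates 1 to 4, a mean of 2.30 ± 0.08 (SD, n = 4). Keap1, the adaptor that brings Nrf2 to a ubiquitin ligase, stood at -3.32, -3.60, -3.56 and -3.56. Its 3 values on replicates 2 to 4 lay together, with replicate 1 above them. Mafg and Mafk encode small Maf proteins, the partners with which Nrf2 binds DNA. Mafg stood at 0.96, 1.06, 1.01 and 0.94, and Mafk at -2.96, -2.74, -2.80 and -2.96. Both were thus steady, with SDs of 0.05 and 0.11.

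Bach1, a haem-binding repressor that competes for the same DNA sites, was higher on replicate 4, at -3.69, -3.56, -3.65 and -3.19. Its second probe did not follow this, at -4.12, -5.05, -4.57 and -4.23, with replicate 2 lowest. Sqstm1 encodes p62, an autophagy receptor that takes Keap1 away from Nrf2 and is itself an Nrf2 target. It stood at 5.86, 5.64, 5.31 and 5.67, highest on replicate 1 and lowest on replicate 3, with an SD of 0.23 against a fitted SD of 0.14 (adjusted p = 0.965, limma, n = 4 arrays). Its other 2 probes were not lowest on replicate 3: one stayed between 2.598 and 2.68 and the other was lowest on replicate 4. The spread of Sqstm1 did not pass the test, and its SD was 0.096 with quantile normalization, 0.116 with no scaling, 0.098 with the mean over its probes and 0.116 without replicate 3.

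**Figure D2:**
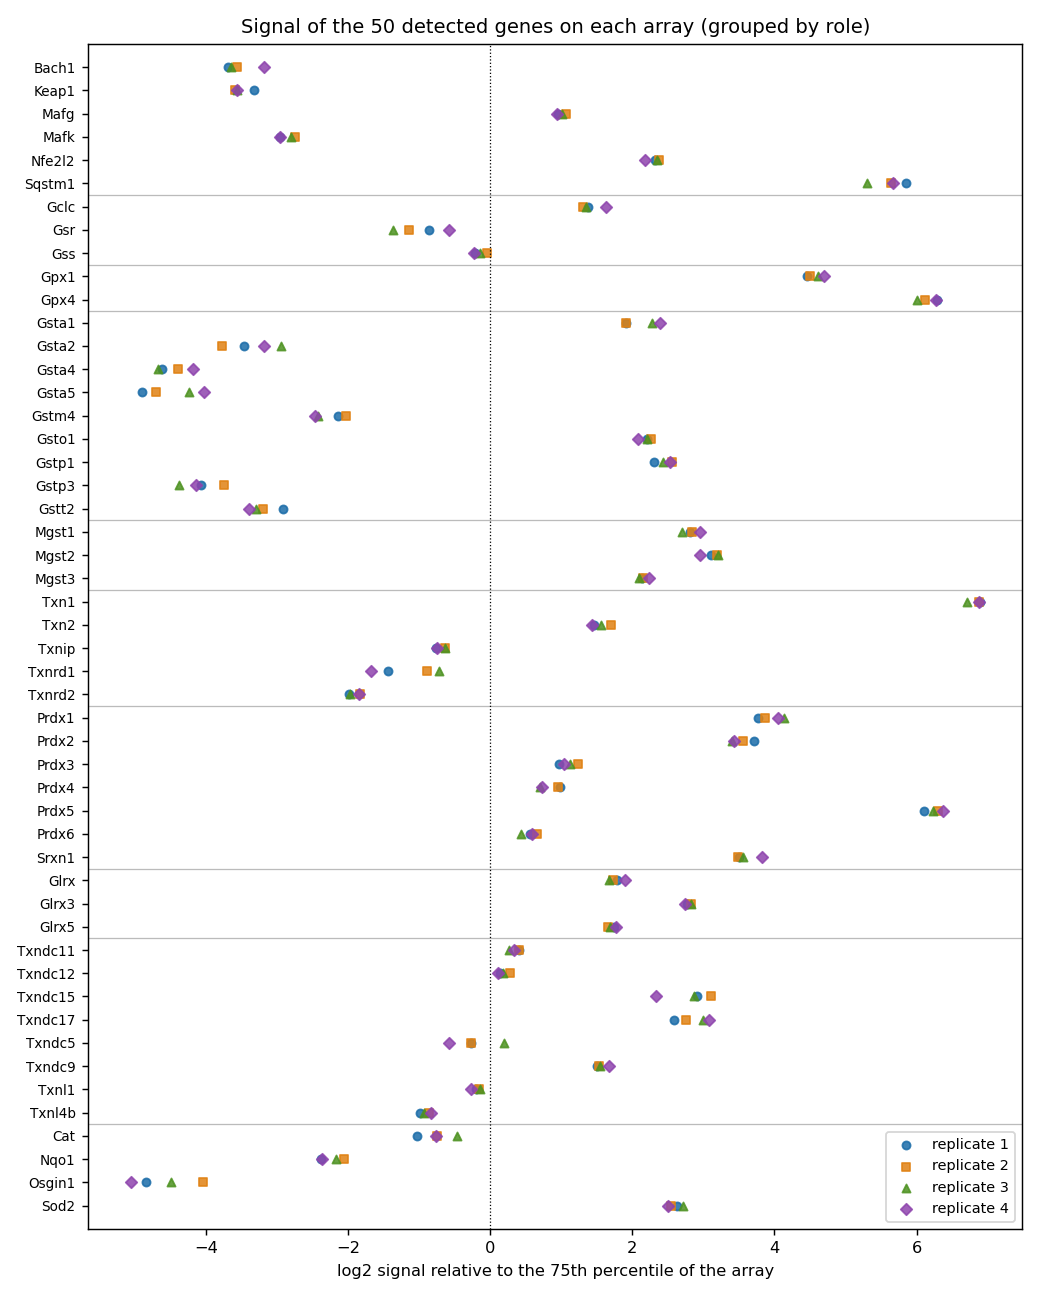
Log2 signal above or below each array's 75th percentile (x axis) for each of the 50 detected genes (y axis, grouped by role), with 1 symbol per replicate. For most genes the 4 symbols overlap; Osgin1, Txnrd1, Gsr, Gsta5 and Gsta2 are among those whose replicates lie farthest apart, and positions along the axis are not comparable between genes.

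Nrf2 with a small Maf binds the antioxidant response element, whose core letters are TGACNNNGC. These letters were searched for on both strands of the RefSeq promoter windows of the rat assembly GRCr8, each of 300 bases from 250 before to 50 after a gene's start. Windows were given for 66 of the 75 genes (72 windows), and not for Gpx8, Gsr, Gstm6l, Gstt1, Gstt2, Mgst2, Prdx6, Sod3 and Txnip. The letters occurred in 19 of 72 windows (26.4%), against 12.1% of the 33469 windows of all genes, and in 19 of 66 genes (28.8%), against 13.1% of 27457 genes. They were present in 14 of 45 detected genes, 0 of 3 partly detected genes and 5 of 18 genes not detected. A match of 6 set letters and 3 free ones is a description of the sequence and does not show a working site.

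The following 6 matches are shown because they fall on both sides of the detection call; the 9 letters of the match are in capitals and each is printed 5′ to 3′ on the strand that reads TGACNNNGC. The 33 bases printed for Prdx1 lie at chr5:135383759-135383791 (minus strand), and those for Gstp1 at chr1:210769746-210769778 (minus). Those for Txnrd1 lie at chr7:22755962-22755994 (plus), and those for Mafk at chr12:19959213-19959245 (plus). Those for Gclm lie at chr2:213031951-213031983 (minus), and those for Gpx2 at chr6:101230026-101230058 (plus). All 6 ranges are in GRCr8 and hold the match with its flanking bases. The first 4 genes were detected on 4 of 4 arrays, and Gclm and Gpx2 on none.
Prdx1: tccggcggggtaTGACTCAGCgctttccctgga
Gstp1: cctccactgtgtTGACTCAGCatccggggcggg
Txnrd1: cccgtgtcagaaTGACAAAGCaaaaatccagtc
Mafk: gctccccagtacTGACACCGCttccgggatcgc
Gclm: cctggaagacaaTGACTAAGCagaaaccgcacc
Gpx2: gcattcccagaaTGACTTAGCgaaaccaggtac
Prdx1 and Gstp1 carry the same 9 letters. The match begins 131 bases before the annotated start of Prdx1, 57 before that of Gstp1, 74 before that of Txnrd1, 37 before that of Mafk, 168 before that of Gclm and 9 before that of Gpx2.

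Of the 4 genes of glutathione synthesis and recycling 3 were detected, and the exception was the modifier subunit of the first enzyme of synthesis. Gclc, the catalytic subunit of glutamate-cysteine ligase and the rate-limiting enzyme of glutathione synthesis, stood at 1.37, 1.30, 1.35 and 1.63. Gclm, the subunit that makes the ligase more efficient, was not detected. Its processed intensities were 4.37, 4.97, 4.83 and 4.23, while the lowest intensity of a spot well above background was 18.1 to 21.5 on these arrays. Its promoter holds the match to TGACNNNGC shown above, and the call rests on 1 named probe.

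Gss, glutathione synthetase, stood at -0.22, -0.045, -0.15 and -0.23, which is an SD of 0.08. Gsr, glutathione reductase, which restores oxidised glutathione with NADPH, stood at -0.86, -1.15, -1.38 and -0.58. It was highest on replicate 4 and lowest on replicate 3, a span of 1.73-fold and an SD of 0.34 against a fitted SD of 0.15. The unadjusted p of Gsr was 0.0295 and the adjusted p 0.679 (limma variance test, n = 4 arrays), so its spread did not pass the test. With no scaling its SD was 0.162.

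Among the glutathione peroxidases, the 2 detected genes were the cytosolic form and the lipid peroxidase. Gpx1, the main cytosolic selenium enzyme that reduces hydrogen peroxide, stood at 4.45, 4.50, 4.61 and 4.70. Gpx4, which reduces lipid hydroperoxides in membranes and guards against ferroptosis, stood at 6.29, 6.11, 5.9995 and 6.28. Replicates of both genes lay within 1.22-fold of each other, and for each gene the second probe had its lowest value on the same array as the first. Gpx2, Gpx3, Gpx5, Gpx6, Gpx7 and Gpx8 were not detected. Gpx2, the gastrointestinal form, had intensities of 6.10, 10.0, 6.41 and 6.93, and Gpx3, the secreted plasma form, of 10.99, 5.19, 4.96 and 6.82.

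The soluble glutathione transferases attach glutathione to electrophiles. Their calls are given by class, beside the 51.0% of all named genes that were detected. Of the alpha class 4 of 7 genes were detected (57.1%: Gsta1, Gsta2, Gsta4 and Gsta5), and of the mu class 1 of 8 (12.5%: Gstm4). Of the pi class both were detected (Gstp1 and Gstp3), and of the theta class 1 of 3 (33.3%: Gstt2). Of the omega class 1 of 2 was detected (50.0%: Gsto1), and of the kappa class 0 of 1. The alpha share was near that of all named genes, and the classes of 1 to 3 genes are too small to compare. Genes of 1 class are close in sequence, and whether a probe also bound the RNA of a relative was not tested. Gsto1, which also reduces dehydroascorbate, was the steadiest, at 2.21, 2.26, 2.21 and 2.08 (SD 0.08). Gsta5, an alpha-class enzyme, had the widest spread of the class members, at -4.91, -4.71, -4.24 and -4.03 (SD 0.41, or 0.162 with normexp, and adjusted p = 0.995, limma). The Gsta5 intensities of 29.3, 35.6, 65.5 and 50.9 were not far above the lowest spots called well above background.

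Gsta5 was higher on replicates 3 and 4 than on 1 and 2, and so were 2 of the other 3 detected alpha-class genes. Gsta1 stood at 1.91, 1.91, 2.28 and 2.40, and its second probe at 1.89, 1.96, 2.31 and 2.33. Gsta2 stood at -3.47, -3.77, -2.95 and -3.19 (SD 0.356, or 0.192 with normexp). In these 3 genes replicates 3 and 4 both lay above replicates 1 and 2. The same held for Gpx1, Prdx1, Srxn1, Txndc17 and Txndc9, which makes 8 of the 50 detected genes (16.0%), against 19.9% of all tested genes. Gsta4, at -4.62, -4.40, -4.67 and -4.19, did not divide in that way. The unadjusted p of Gsta1 was 0.0435 and the adjusted p 0.762 (limma variance test, n = 4 arrays), so its spread did not pass the test, and the split was counted after the values were seen.

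Gstp1, the pi-class enzyme, stood at 2.30, 2.55, 2.43 and 2.53, and its second probe at 1.14, 1.32, 1.25 and 1.38. Both probes were lowest on replicate 1. Gstm1, a mu-class enzyme, was well above background on replicate 2 alone, at -7.24, -3.92, -8.10 and -6.81, and its second probe on no array. The Gstm1 spot on replicate 2 was 3.32 above the median of the other arrays; of 48 spots within 3 rows and columns of it, 3 also exceeded theirs by more than 2 on that array (3.96, 3.00 and 2.40), against 0.707% of all gene spots. Gstm2 and Gstm6l, mu-class relatives, also had their highest values on replicate 2 (-5.34 and -5.89), yet neither was well above background there. The part of the slide position and of shared sequence in the Gstm1 value was not tested. Gsto2, the second omega-class gene, was well above background on 3 arrays, at -5.40, -6.02, -5.03 and -5.20, with replicate 2 lowest.

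The microsomal transferases, membrane enzymes of which several also reduce lipid peroxides, were detected without exception. Mgst1 stood at 2.82, 2.84, 2.70 and 2.95, and Mgst2 at 3.11, 3.19, 3.21 and 2.95. Mgst3 was the steadiest of them, at 2.13, 2.16, 2.09 and 2.23. Their SDs were 0.06 to 0.12.

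In the thioredoxin system the 2 thioredoxins had SDs of 0.09 and 0.12, and the cytosolic reductase had the widest spread. Txn1, the cytosolic thioredoxin, stood at 6.89, 6.88, 6.70 and 6.88, with replicate 3 below the other 3 values. Txn2, its mitochondrial counterpart, stood at 1.46, 1.70, 1.56 and 1.44. Txnip, a protein that binds thioredoxin and limits its activity, stood at -0.76, -0.64, -0.64 and -0.75, a span of 1.09-fold. Txnrd2, the mitochondrial thioredoxin reductase, stood at -1.99, -1.84, -1.98 and -1.85.

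Txnrd1, the cytosolic selenoenzyme that reduces thioredoxin with NADPH and an Nrf2 target, had the largest SD of the 50 detected genes. It stood at -1.44, -0.89, -0.73 and -1.68, so replicates 2 and 3 lay above replicates 1 and 4, with a span of 1.94-fold. The SD was 0.45 against a fitted SD of 0.16 (unadjusted p = 0.00779, adjusted p = 0.452, limma, n = 4 arrays). This was the smallest adjusted p of the 50 genes, and it did not pass the threshold. The second Txnrd1 probe did not show the pattern: it stood at -2.30, -2.31, -2.61 and -2.26, with replicate 3 lowest. With the mean over both probes the SD was 0.171, and with no scaling it was 0.679. Txnrd3, a reductase that also carries a glutaredoxin domain, was well above background on 2 arrays, at -6.02, -5.17, -5.12 and -4.94.

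The peroxiredoxins reduce peroxides with electrons from thioredoxin, and sulfiredoxin restores them when their active cysteine has been overoxidised. All 6 peroxiredoxins and Srxn1 were detected, with SDs between 0.10 and 0.17 and no span above 1.29-fold. Prdx1, a cytosolic form, had the largest SD, at 3.77, 3.87, 4.14 and 4.05. Prdx6, which works with glutathione rather than thioredoxin, had the smallest, at 0.57, 0.66, 0.43 and 0.58. Srxn1 stood at 3.50, 3.49, 3.55 and 3.82, with replicate 4 highest. None of the 7 had a spread that passed the test (smallest unadjusted p = 0.225, limma, n = 4 arrays).

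The glutaredoxins, which remove glutathione from proteins, had the lowest median SD of the roles (0.06). Glrx3, a form that works in iron handling, had the smallest SD of the 50 detected genes, at 2.77, 2.82, 2.82 and 2.73 (SD 0.04). Glrx stood at 1.78, 1.72, 1.67 and 1.89. Of the 2 probes of Glrx5, a mitochondrial protein of iron-sulfur cluster assembly, 1 was detected and 1 was above background on no array.

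Of the thioredoxin-domain genes, the endoplasmic reticulum gene Txndc5 and Txndc15 varied most. Txndc15 stood at 2.91, 3.10, 2.87 and 2.34, with replicate 4 lowest (SD 0.33, unadjusted p = 0.00991, adjusted p = 0.496, limma, n = 4 arrays). Its other 2 probes were also highest on replicate 2 and lowest on replicate 4, at 1.47, 1.69, 1.58 and 1.35 and at 1.30, 1.52, 1.43 and 1.13. Txndc5 stood at -0.27, -0.27, 0.20 and -0.58, and its second probe at -3.53, -4.18, -3.90 and -3.39, in another order. Without replicate 4 the Txndc15 SD was 0.121, and without replicate 3 the Txndc5 SD was 0.179. Txnl1 was the steadiest of this group, at -0.20, -0.15, -0.14 and -0.27. Txndc2 and Txndc8, genes known from the testis, were not detected.

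**Figure D3:**
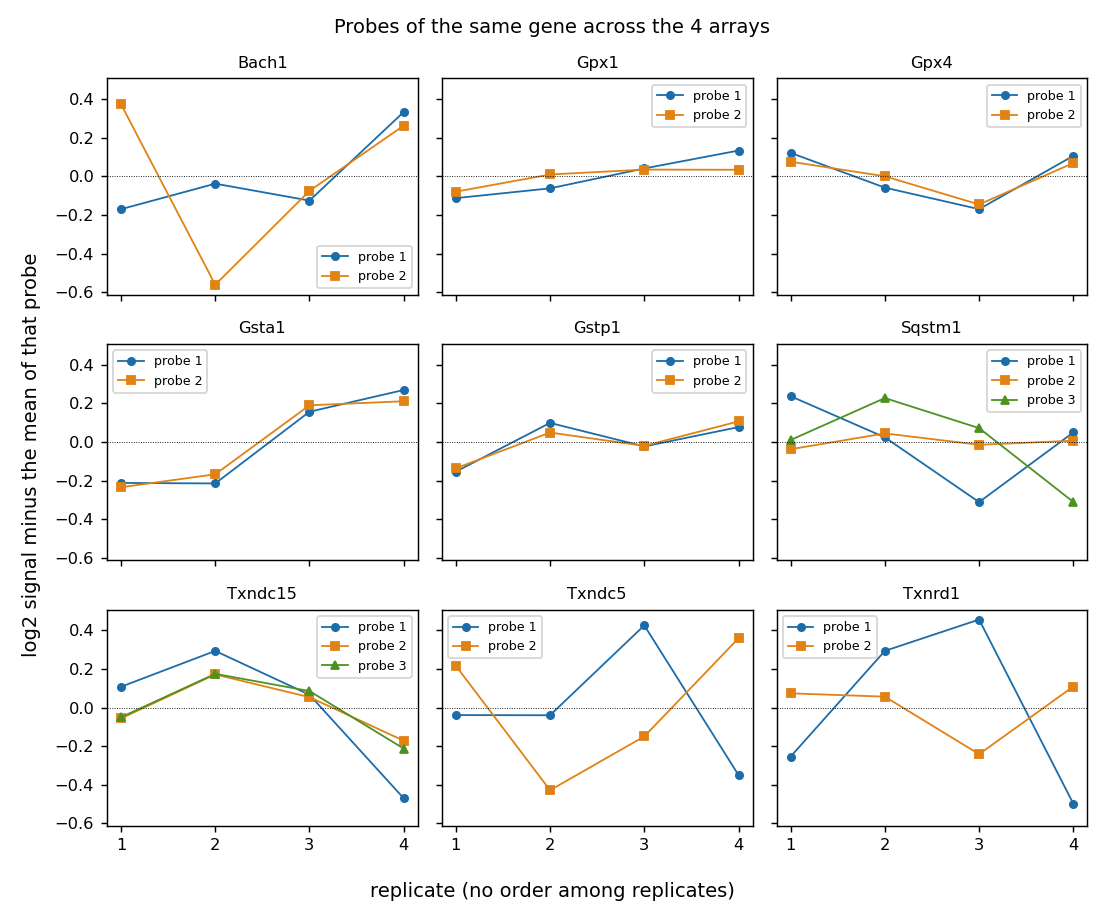
Deviation of each probe from its own mean over the 4 arrays (y axis, log2 units) against replicate number (x axis), for the 9 genes whose probes were all detected; each colour is 1 probe, and lines only join values of the same probe. The probes of Gsta1, Gstp1, Gpx4 and Txndc15 follow each other, whereas those of Txnrd1, Txndc5 and Bach1 part.

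The agreement between probes of 1 gene could be examined in 15 genes with several named probes. In 9 of them all probes were detected, and in 3 (Glrx5, Gstt2 and Txnl4b) the probes differed in detection. Among the 9, the 2 brightest probes had their highest array in common in 3 genes (33.3%), against 39.9% of all such genes, and their lowest array in common in 4 (44.4%), against 37.8%. Sharing of that order was thus near that of all genes. For Gsta1 and Txndc15 the variation between replicates was seen by every probe, whereas for Txnrd1 and Txndc5 it was seen by 1 of 2.

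Of the quinone, peroxide and superoxide enzymes, 4 of 5 were detected. Nqo1, the quinone reductase and a classical Nrf2 target, stood at -2.38, -2.06, -2.18 and -2.37. Osgin1, an oxidative stress-induced growth inhibitor, stood at -4.84, -4.05, -4.49 and -5.06 (SD 0.44, adjusted p = 0.995, limma). It was the 1 gene of the 50 (2.00%) whose highest array was more than 2-fold above its lowest (2.02-fold), against 3.27% of all tested genes; without replicate 2 or without replicate 4 the count was 0. The Osgin1 SD was 0.289 without replicate 2 and 0.168 with normexp. Its intensities of 30.6, 56.4, 55.1 and 24.9 were not far above the lowest spots called well above background.

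Catalase, Cat, which breaks down hydrogen peroxide in peroxisomes, stood at -1.03, -0.75, -0.46 and -0.77, highest on replicate 3. Sod2, the mitochondrial superoxide dismutase, stood at 2.63, 2.54, 2.72 and 2.50. Sod3, the extracellular form, was not detected, with intensities of 12.3, 9.35, 10.5 and 6.09.

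The 50 detected genes had a lower median spread than all tested genes in the main processing. Their median SD was 0.118 on the log2 scale, against 0.144 over all tested genes, and their median ratio of SD to fitted SD was 0.881, against 0.915. An SD above the fitted one was found in 17 of 50 genes (34.0%), against 43.0% of all tested genes, and an SD above the median of all genes in 21 (42.0%), against 50.0%. With no scaling between arrays, and without replicate 3, the median SD of the defence genes was the larger one (0.287 against 0.267, and 0.136 against 0.128). These shares describe the list and were not tested.

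**Figure D4:**
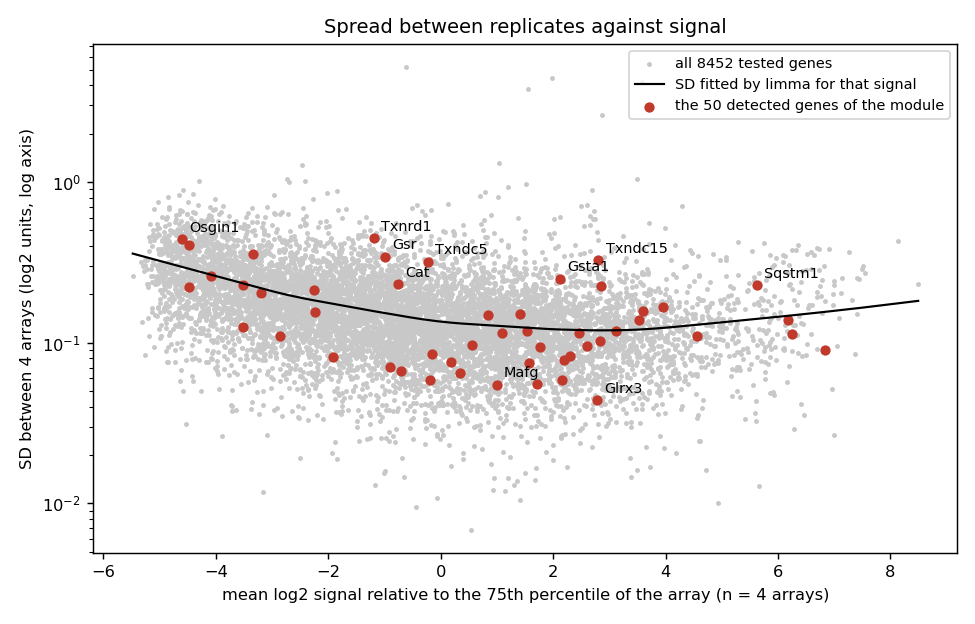
SD over the 4 arrays (y axis, log2 units on a log axis) against mean log2 signal above or below the 75th percentile (x axis), for all 8452 tested genes (grey), the 50 detected defence genes (red) and the SD that limma fits for each signal (line). The red points lie within the grey cloud; Txnrd1 (SD 0.45), Gsr (0.34), Txndc15 (0.33) and Txndc5 (0.32) are those most above the line, and Glrx3 (0.04) and Mafg (0.05) lie below it.

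Repeated spots of 1 probe show the spot-to-spot noise within an array, and not the error of labelling, hybridisation or scaling. Of the probes printed in 10 spots, 10 belonged to 8 detected genes (Gpx1 and Gstp1 through 2 each, Mgst2, Mgst3, Prdx1, Prdx5, Txn1 and Txndc17). Spots of 1 probe on 1 array had an SD of 0.0411 to 0.179, so that the mean over its spots had a standard error of at most 0.0596. The SD between arrays was 0.0541 to 0.226, which was 1.80 to 5.21 times the largest such standard error of the same probe. The ratio was highest for a Gstp1 probe (5.21) and for Prdx1 (5.19). The SD between arrays was above every SD between spots for 5 of the 10 probes, and within or below their range for the other 5 (both Gpx1 probes, Mgst2, Mgst3 and the second Gstp1 probe). In Gpx2 and Sod3, which were not detected, spots differed by an SD of 0.543 to 0.916.

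**Figure D5:**
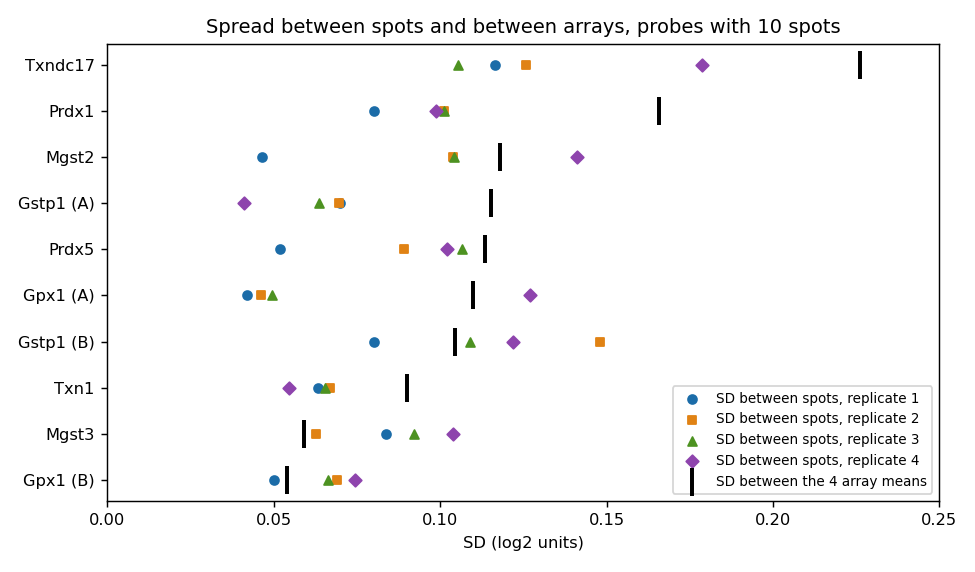
SD in log2 units (x axis) for each detected probe with repeated spots (y axis; letters tell apart 2 probes of a gene): symbols give the SD between spots on each array, black bars the SD between the 4 array means. The bar lies right of every symbol for Txndc17, Prdx1, Prdx5, Txn1 and 1 probe of Gstp1.

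The 50 detected genes did not share 1 highest or lowest array. They were highest on replicates 1 to 4 in 7, 18, 9 and 16 cases, and the background shares over all tested genes were 16.4%, 26.2%, 19.6% and 37.8%. They were lowest on replicates 1 to 4 in 15, 6, 13 and 16 cases, beside 24.5%, 17.4%, 36.7% and 21.3% of all tested genes. The pattern of Txnrd1, with replicates 2 and 3 both above replicates 1 and 4, occurred in 16 of 50 genes (32.0%), against 18.8% of all tested genes, a count that was made after the values were seen. The other 15 genes were Cat, Glrx3, Gss, Gsto1, Mafg, Mafk, Mgst2, Nfe2l2, Nqo1, Osgin1, Prdx3, Txn2, Txndc12, Txnip and Txnl1. The count follows rank order alone and sets no smallest gap: Gsto1 stood at 2.2085 on replicate 1 and at 2.21 on replicate 3. The second Txnrd1 probe did not show the pattern. With no scaling between arrays the count was 31 of 50, against 60.0% of all tested genes.

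Most genes that feed the same pathways were detected. Over 5 further lists, 40 of 48 genes with a named probe were detected (83.3%), 3 partly and 5 not, against 51.0% of all named genes. By list the share ranged from 60.0% to 100%. These lists were chosen with earlier results of these data known, and the difference in share was not tested. All 12 other Nrf2 targets were detected, among them the haem oxygenase Hmox1 and the biliverdin reductases Blvra and Blvrb. The 2 with the largest SD were the ferritin chains, Ftl1 at 7.64, 7.40, 6.77 and 7.24 and Fth1 at 7.07, 6.65, 6.20 and 6.66 (SDs 0.37 and 0.35). Both ferritin genes were highest on replicate 1 and lowest on replicate 3, and neither passed the test (adjusted p = 0.672 and 0.659, limma, n = 4 arrays). Sqstm1, Gpx4, Prdx2, Prdx4, Txn1 and Tkt had the same highest and lowest arrays, so this was not particular to ferritin. Of all tested genes 16.4% were highest on replicate 1 and 36.7% were lowest on replicate 3. The part of the scaling in this order was not tested.

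All 6 genes of the NADPH supply were detected, and 1 of them was hypervariable. Pgd, the phosphogluconate dehydrogenase of the pentose phosphate pathway, which yields the NADPH that both reductases use, stood at 0.45, 1.46, 1.52 and -0.30. Replicates 2 and 3 lay above replicates 1 and 4, the same split as in the brighter Txnrd1 probe but not in the second one. Gsr, the other reductase, had the reverse split, with replicates 1 and 4 above replicates 2 and 3. The SD of Pgd was 0.87 (adjusted p = 0.0149, limma, n = 4 arrays). The call rests on 1 probe, and it was lost without replicate 3 (adjusted p = 0.458) and without replicate 4 (0.0927). The call was also lost with quantile normalization (adjusted p = 0.0745, limma) and with the 75th percentile over detected probes (0.0547). The same held with no trend (0.910) and without robust fitting (0.0706). It was kept in 10 of 16 alternatives, and over all 16 the adjusted p ranged from 5.65e-06 to 0.910. Tkt, the transketolase of that pathway, had the next largest SD, at 6.79, 6.54, 5.84 and 6.26, in another order.

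Of the genes of glutathione turnover and cystine supply 6 of 10 were detected (60.0%), near the 51.0% of all named genes. They included both chains of the cystine transporter, Slc7a11 and Slc3a2. Ggt1, Ggt5 and Cbs were not detected, and Cth, which makes cysteine from cystathionine, was above background on 2 arrays. Oplah, the oxoprolinase of the glutathione cycle, had the largest SD of the detected ones, at -4.45, -3.71, -4.74 and -4.15, followed by Chac2, a glutathione-degrading enzyme, at -3.35, -3.30, -3.76 and -3.92. Of the Nrf2 relatives and control genes 5 of 8 were detected (62.5%, also near that share), including Cul3 and Rbx1, the ligase subunits that act with Keap1. Nfe2 and Bach2 were not detected, and Nfe2l3 was above background on 1 array. The largest SDs among them were those of Maff (0.22) and Cul3 (0.11).

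Of 12 genes of selenoprotein synthesis and other selenoproteins 11 were detected, and Selenom was above background on 2 arrays. Sephs2, Secisbp2, Eefsec, Sepsecs and Pstk, which make and insert the selenocysteine that Gpx1, Gpx4 and the thioredoxin reductases carry, were all detected. Selenop, the secreted selenium carrier, had the largest SD, at -0.95, -1.05, -1.18 and -1.76, with replicate 4 lowest, followed by Sepsecs (SD 0.27).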

How the data were processed

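Each array was read with Agilent Feature Extraction 11.0.1.1, per the file headers, and the deposited spot intensities are linear values already handled for background by that program. The other deposited columns used here are the median signal and local background (intensities) and flags of another kind (0 or 1). Per the labels, 100 ng of RNA per sample was labelled with Cy3.

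Here the log2 processed signal of each gene spot was set against the 75th percentile of its array (intensities of 878, 932, 1237 and 831 on replicates 1 to 4). Spots of 1 probe were averaged without outlier flags, and of several probes the one with the highest mean stood for the gene. A probe counted as above background where over 50% of its spots did. Accessions were matched without versions to RefSeq symbols (GRCr8): 21102 of 45598 probes (46.3%) matched 1 gene, and rat Txn is listed as Txn1. The array header names rn4, so no probe coordinates are given. The variance test used limma 3.58.1 in R 4.3.3, with a trend and robust fitting, and was tested on simulated data, where it missed nearly all genes with a moderately raised SD and many with a strongly raised one. Tables and plots were made with pandas 2.3.3, numpy 2.4.6 and matplotlib 3.10.9 in Python 3.11.15.

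The genes and lists were chosen with earlier results of these data known. By rule, the named genes were those matched by their full name and the detected gene with the largest and the smallest SD of each family. Genes partly detected, over 2-fold or with a lone array were also named. Of the further lists, the rule took the genes not detected and the 2 with the largest SD. Other genes, such as Hmox1, Blvra, Slc7a11 and Rbx1, were named outside this rule. The normexp alternative used the median signal (offset 50) in place of the planned mean signal. Protein sequences were not analysed here. Each p-value compares the spread of a gene over these 4 samples with the spread that limma fits for genes of the same signal.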

Additional observations from a re-analysis of the deposited data

Results flagged for a closer look

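The level of each of the 53 genes detected on at least 1 array was screened for an array that stood apart, by the gap to the nearest other array as a share of the whole range. In 2 genes this share was above Dixon's critical value for 4 samples, where chance gives about 1 in 20 genes, and among all tested genes 6.20% were above it. In Keap1 the share was 0.870: replicate 1 stood at -3.32 and the others between -3.60 and -3.56, a difference of 1.21-fold over the whole range. In Txn1 the share was 0.913: replicate 3 stood at 6.70 and the others between 6.88 and 6.89. The spread of both genes was below the SD that limma fits for their signal (ratios of 0.538 and 0.579), and what set these arrays apart was not tested.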

How the results depend on the processing

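The series has 1 group of 4 arrays on 1 slide, so every SD rests on 4 values, the slide cannot be told apart from the group, and genes with 1 named probe rest on that probe. No paired analysis was possible because there is 1 group. A call of 0 does not show that the replicates were alike. Detected defence genes numbered 50 to 56 over the alternatives, and further pathway genes 40 to 44. The count of hypervariable defence genes was 0 in each of 16 alternatives, with a smallest adjusted p of 0.147 to 0.910. Over all genes that count was 20 as reported, 29 with no scaling, 10 with quantile normalization, 10 with the 75th percentile taken over detected probes, 57 with normexp on the median signal, 28 with the positive and significant flag, 28 with the negative control threshold, 79 with no filter on dim probes, 13 with the mean over probes, 42 with outlier spots kept, 4 with no trend, 9 without robust fitting, and 3 to 63 with 1 replicate left out (3 without replicate 3, 10 without replicate 4, 51 without replicate 1, 63 without replicate 2). The median SD of the defence genes was 0.287 with no scaling, 0.130 with quantile normalization, 0.139 with the positive and significant flag, 0.132 with the negative control threshold and 0.211 with no filter, and 0.115 to 0.136 with 1 replicate left out. Genes over 2-fold numbered 7 with no scaling, 2 with the 75th percentile over detected probes, 0 with normexp, 5 with the positive and significant flag, 4 with the negative control threshold, 15 of 75 with no filter and 2 with the mean over probes, and 0 to 1 with 1 replicate left out (0 without replicate 2 and without replicate 4). Genes highest on replicate 2 numbered 2 with no scaling and 28 of 75 with no filter, and 21 to 24 with another replicate left out. Genes with an SD above the median of all genes numbered 36 of 75 with no filter, which adds the 25 dim genes. Of 700 SDs of single genes under the alternatives, 87 moved by over 1.5 times. With no scaling 38 were higher and 2 lower, and elsewhere 7 were higher and 40 lower, 27 of these with 1 replicate left out. The count of genes with replicates 2 and 3 above replicates 1 and 4, with alternatives chosen after seeing the data, was 15 to 18, except 31 with no scaling, and that of genes with replicates 3 and 4 above replicates 1 and 2 was 8 to 11. Unless the construction of an alternative shows it, the cause was not tested.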
